A study of Homo sapiens with 18 samples.

Results

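The comparison described here is JQ1-VHL against DMSO in total new RNA of the established breast cancer line MDA-MB-453, which is of luminal type and carries ERBB2. It rests on 6 of the 18 libraries of the series, chosen by their labels: 3 of total RNA from cells given DMSO and 3 of total RNA from cells given JQ1-VHL. The other 12 libraries hold nuclear or cytoplasmic RNA of the same 2 treatments, 3 libraries each. All cells were exposed for 3 h and all received 0.1 mM 4-thiouridine for the last 60 min. Total RNA was not fractionated, whereas the other fractions were parted with digitonin. The labels list digitonin at 1 mg/ml for all 18 libraries, those of total RNA included. The drug is called dBET in the sample titles and JQ1-VHL in the treatment label, and the second name is used here. The labels do not say whether the replicates were separate cultures. P-values of genes come from a single fit over all 18 libraries, whose groups share 1 estimate of the spread per gene. They speak only for the spread within the groups of these libraries, which may be technical.

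BET proteins bind acetylated lysines on histones and other chromatin proteins. They help RNA polymerase II leave its pause near the promoter, in part through the kinase P-TEFb. JQ1-VHL joins the BET ligand JQ1 to a ligand of the VHL ubiquitin ligase, so that BET proteins are marked for destruction by the proteasome. Genes next to large enhancers, among them MYC and the lineage transcription factors of a tumour cell, are known for their strong dependence on BET proteins. The label 4-thiouridine enters RNA made during the pulse and is read as a T-to-C change, so the values describe polyadenylated RNA made in that hour and not the standing pool. The BET proteins themselves were not measured, and the compound removes protein and not mRNA, so no value below checks the drug.

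A value is a sum of T-to-C reads over all intervals of a gene in the deposited table, which the submitters scaled per library with ERCC spike-in RNA. It is called units here. ERCC RNA was added in proportion to the mass of RNA, so units measure new RNA per mass of RNA and not per cell, and less new RNA per cell cannot be told apart from fewer labelled cells. The table held 12755 gene IDs, and 10191 with a mean of at least 10 units over the 18 libraries were tested with limma on log2(units + 1). Changes are given on 2 scales. The first is the ERCC scale as deposited. On the second, called relative to the typical gene, each library was divided by the median of its genes' deviations from their mean, which puts the median gene of the comparison at -0.02. Group values are mean ± SD of 3 libraries, log2 changes are estimate ± SE, and adjusted p is limma's after Benjamini-Hochberg, called at 0.05.

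The 6 libraries held 4.36 to 5.37 M recovered T-to-C reads (M stands for mega), with overlapping ranges in the 2 treatments. Summed units were 10.8, 2.78 and 3.31 M in DMSO replicates 1 to 3, and 6.10, 5.42 and 5.52 M in JQ1-VHL replicates 1 to 3. DMSO replicate 1 therefore stood above all others, while DMSO replicates 2 and 3 stood below all JQ1-VHL libraries. The ratio of the means was 1.01 (exact two-sided permutation p = 1, and 0.1 is the smallest that 3 libraries against 3 can give), and it was 1.87 without DMSO replicate 1. The median gene changed by -1.50, 0.14 and -0.06 in the same-numbered pairs on the ERCC scale. Of the 15 luminal markers listed, 15 were in the table. Of 21 markers of other cell types 4 were, and their summed units were 1096, 243 and 234 under DMSO and 678, 556 and 548 under JQ1-VHL. Most of that sum came from COL1A1, a collagen gene, whose mean was 483 ± 478 units under DMSO and 502 ± 59.2 under JQ1-VHL; what part these markers have in the results was not tested.

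New RNA was held by fewer genes under JQ1-VHL. The 100 genes with the most units held 26.3%, 28.0% and 28.2% of all units in the DMSO libraries and 34.7%, 38.2% and 37.3% in the JQ1-VHL libraries. A share of 50% of all units came from 526, 467 and 459 genes under DMSO and from 262, 209 and 221 genes under JQ1-VHL. Genes without a read numbered 523, 694 and 625 under DMSO and 979, 1221 and 1373 under JQ1-VHL. The groups did not overlap in any of these 3 measures, which do not depend on the scale of a library, although the recovered reads were of similar number. With 3 libraries against 3 the exact two-sided permutation test cannot give less than 0.1.

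**Figure D1:**
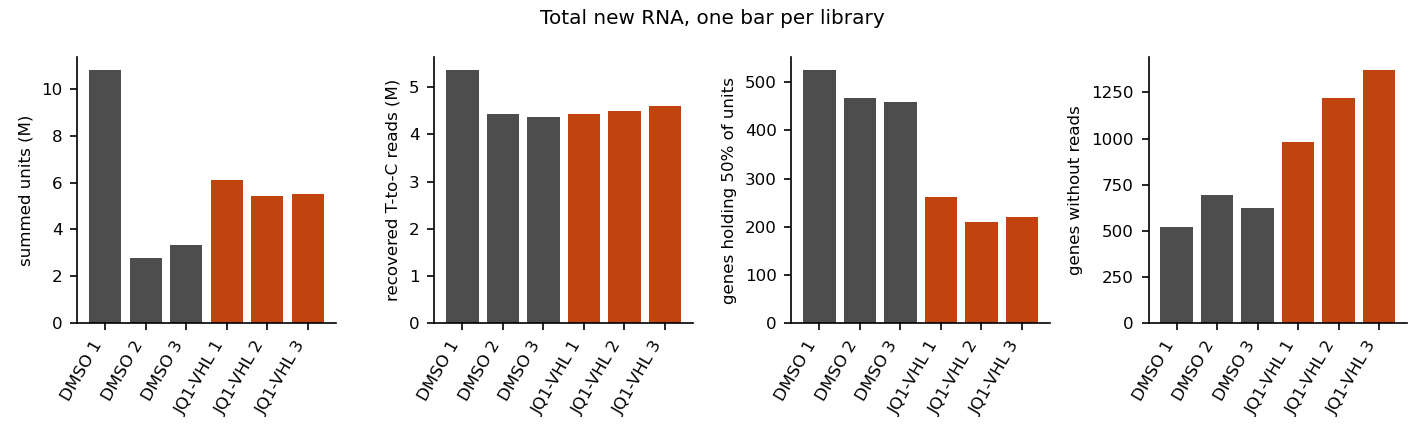
Summed units and recovered T-to-C reads (both in M, mega), genes holding 50% of a library's units, and genes without reads, with 1 bar for each of the 3 DMSO (grey) and 3 JQ1-VHL (orange) total libraries. Recovered reads lie between 4.36 and 5.37 M in all 6, whereas 459 to 526 genes hold 50% of units under DMSO and 209 to 262 under JQ1-VHL.

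With all 6 libraries more genes passed the test downwards than upwards on the ERCC scale. There 284 genes (2.79% of those tested) were lower and 25 (0.245%) were higher under JQ1-VHL, with a median change of -0.49. A fit with the batch number as a replicate block, which pairs same-numbered libraries, called 549 lower and 34 higher. These counts lean on single libraries. Leaving out a DMSO library gave 27 calls for replicate 1, 188 for replicate 2 and 113 for replicate 3. Leaving out a JQ1-VHL library gave 236 for replicate 1, 105 for replicate 2 and 18 for replicate 3. Without DMSO replicate 1 the excess of lower calls was gone, with 14 higher and 13 lower, and the median change was 0.15. The fit on this scale treated the variance of each gene as nearly known. Without any model, the units of 2523 genes (24.8%) were lower in every JQ1-VHL library than in every DMSO library. Those of 128 genes (1.26%) were higher. To count as higher, a gene had to exceed DMSO replicate 1, the library with the most summed units. With values set relative to the typical gene, 3000 genes were lower and 3147 higher in this way.

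Relative to the typical gene 1510 genes (14.8%) were lower and 1712 (16.8%) were higher. Of the 309 genes called on the ERCC scale, all 25 higher and 280 of the 284 lower ones were called in the same direction, and 0 in the opposite direction. The changes differed in size: 1401 of the lower genes and 864 of the higher genes had moved by 2-fold or more, and 236 and 48 by 8-fold or more. The split depends on what a library is set against. It was 1876 lower and 1245 higher with a factor from genes with reads in all libraries, 2621 and 1602 with DESeq2's size factors, 1639 and 2170 with edgeR's TMM factors, and 1458 and 1075 when each gene was represented by its highest interval. Set against the library sum it was 3623 lower (35.6%) and 198 higher (1.94%), and the median gene then stood at -0.77. The factor over all tested genes was preferred after the first 2 of these splits had been seen. Leaving out a DMSO library gave 1919 calls for replicate 1, 2032 for replicate 2 and 2210 for replicate 3, and leaving out a JQ1-VHL library gave 2996, 2082 and 1658 in the same order.

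**Figure D2:**
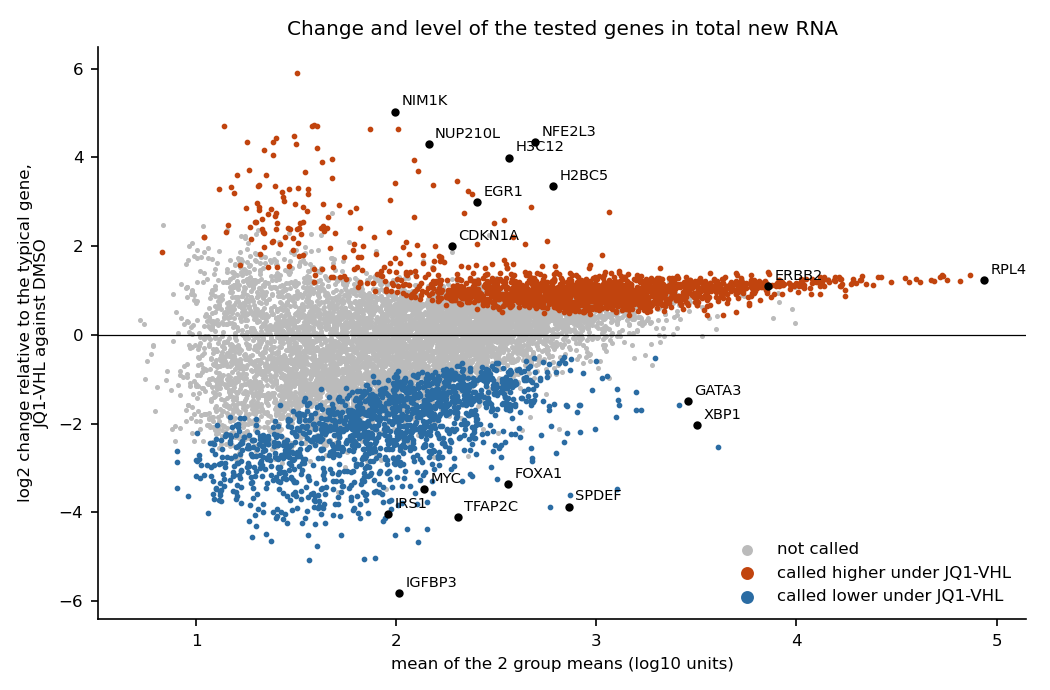
Log2 change relative to the typical gene against level (mean of both group means, log10 units) for each of the 10191 tested genes, with 1510 called lower in blue, 1712 called higher in orange and named genes in black. Lower genes reach -5.82 at IGFBP3, whereas nearly all abundant genes lie close together above 0, with RPL4 at 1.24.

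Signalling genes were among the largest decreases. The ranking took called genes without overlap of the groups relative to the typical gene and with at least 100 units in the higher group. MRPL36 (-5.08), with a DMSO mean of 73.3 units, was left out by that limit. IGFBP3 (ENSG00000146674), which encodes a secreted binder of insulin-like growth factors (GRCh38 chromosome 7, 45912245 to 45921874, minus strand), had 401, 88.4 and 124 units under DMSO and 0, 6.02 and 0 under JQ1-VHL. Its log2 change was -5.82 ± 0.88 relative to the typical gene (adjusted p = 0.00041) and -6.43 ± 1.11 on the ERCC scale (adjusted p = 7.3e-05). Every JQ1-VHL library was at or near 0. The endothelin gene EDN2 had 459, 87.1 and 115 units under DMSO and 2.75, 7.22 and 4.8 under JQ1-VHL (-4.38 relative to the typical gene). PDE4B, a phosphodiesterase of cyclic AMP, had 358, 100.3 and 119 units against 2.75, 4.81 and 4.8 (-4.52). The nucleotide receptor gene P2RY6 had 526, 87.7 and 131 units against 5.5, 19.3 and 0 (-4.67). In each of these 4 genes the lowest DMSO library lay far above the highest JQ1-VHL library, and P2RY6 alone among them was not called relative to the typical gene without JQ1-VHL replicate 3.

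The remaining 8 of the 12 largest decreases in that ranking were spread over other functions, with changes of -4.10 to -5.06 relative to the typical gene. C16orf87 and BRF2 came directly after IGFBP3. RBM15, an RNA-binding protein of the m6A writer complex, had 461, 169 and 199 units under DMSO and 8.25, 19.3 and 2.4 under JQ1-VHL (-4.37 ± 0.58, adjusted p = 0.00012). The AP-2 gamma gene TFAP2C had 711, 197 and 253 units against 35.7, 14.4 and 3.6 (-4.10 ± 0.85, adjusted p = 0.0027). BRF2, a subunit of an RNA polymerase III initiation factor, changed by -5.03 and overlaps ADGRA2. C16orf87 (-5.06), the ankyrin repeat gene ANKRD50 (-4.51), FHIP2A (-4.19), INAFM2 (-4.14) and CYREN (-4.12), which restrains end joining of broken DNA, made up the rest. CYREN overlaps AGBL3 and TMEM140, and because the strand counted is not given in the sources used here, reads of overlapping genes cannot be told apart. RBM15 overlaps RBM15-AS1. All 12 were lower without overlap of the groups on both scales.

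**Figure D3:**
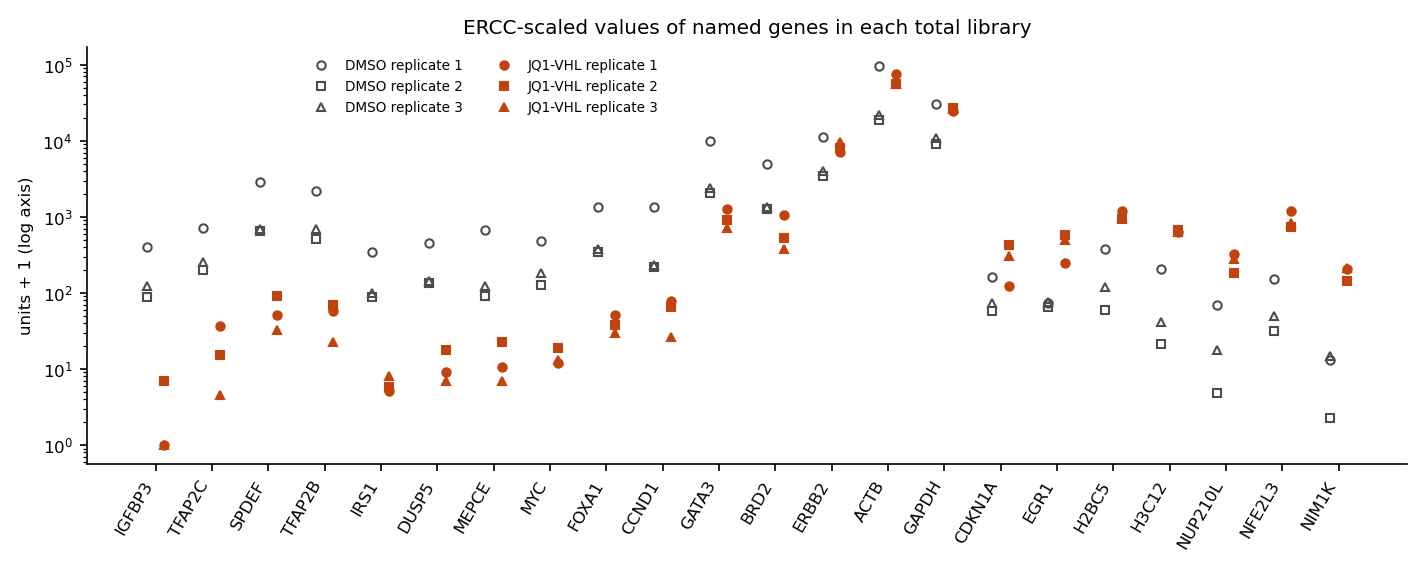
Units + 1 (log axis) of 22 named genes in each of the 6 total libraries, with DMSO open and JQ1-VHL filled and the symbol giving the replicate number. From IGFBP3 to BRD2 every filled symbol lies below every open symbol of the gene, and from EGR1 to NIM1K every filled symbol lies above every open one.

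Most transcription factors of the luminal state that were tested were called lower. This list and those below were chosen with earlier results of these data known, so their shares are descriptions without a test. Of 20 tested, 14 were called lower and 1 higher relative to the typical gene, where 14.8% and 16.8% of all tested genes were, and 5 were also called lower on the ERCC scale. The list median was -1.54, against -0.02 for all tested genes, and -2.02 on the ERCC scale, against -0.49. Without 1 library 11 to 14 were called lower. The share of all units held by these genes was 0.369%, 0.370% and 0.356% under DMSO and 0.0801%, 0.0748% and 0.0646% under JQ1-VHL. That is 0.200 times the DMSO share, with no overlap of the groups.

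The ETS factor gene SPDEF, active in secretory epithelia (GRCh38 chromosome 6, minus strand, 34537802 to 34556333), had 2872, 646 and 698 units under DMSO and 50.9, 90.3 and 31.2 under JQ1-VHL (-3.87 ± 0.44, adjusted p = 3.1e-05). The AP-2 beta gene TFAP2B had 2165, 510.1 and 691 units against 56.4, 68.6 and 21.6 (-3.87 ± 0.34, adjusted p = 1.8e-06). The pioneer factor gene FOXA1 had 1333, 340.3 and 382 units against 50.9, 37.3 and 28.8 (-3.36 ± 0.66, adjusted p = 0.002), and it overlaps TTC6. In these genes every JQ1-VHL library lay below every DMSO library by a wide margin.

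GATA3 and XBP1 were lowered less than SPDEF and kept more new RNA. GATA3, a zinc finger factor that keeps luminal identity, had 9935, 2078 and 2386 units under DMSO and 1271, 897 and 702 under JQ1-VHL (-1.50 ± 0.18, adjusted p = 5.5e-05, and adjusted p = 0.15 on the ERCC scale). XBP1, a factor of the secretory and stress response, had 9987, 3196 and 3468 units against 907, 906 and 720.1 (-2.04 ± 0.36, adjusted p = 0.0011). TFAP2A, GRHL1, CREB3L4, MYB, TRPS1, ZNF703 and GRHL2 were among the other members called lower, at -0.89 to -2.43, and the last 4 lost the call in 1 or more of the fits that left out a library. ESRRA, an orphan nuclear receptor gene of energy metabolism, was the member called higher (0.83 ± 0.23, adjusted p = 0.012). Its units overlapped between the groups, it was not called without JQ1-VHL replicate 3, and it overlaps TRMT112. TOX3, KLF5, HES1, EHF and CREB3L1 did not pass, with changes of -0.18 to -1.24.

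Structural, secretory and receptor genes of luminal cells were called in both directions. Of 13 keratin, apocrine and ERBB genes, 5 (38.5%) were called higher and 2 (15.4%) lower relative to the typical gene. Of all tested genes 16.8% and 14.8% were, so the lower calls were near that share. The median was 0.79, with 0.31 on the ERCC scale and 0.02 against the library sum, where 0 were called higher and 5 lower. Relative to the typical gene 1 to 5 were higher without 1 library, with 3 for DMSO replicate 1 and for replicate 3, 1 for JQ1-VHL replicate 2 and 2 for JQ1-VHL replicate 3. ERBB2, the receptor tyrosine kinase gene amplified in this subtype of tumour, had 11149, 3416 and 3998 units under DMSO and 7139, 8018 and 9739 under JQ1-VHL (1.10 ± 0.34, adjusted p = 0.021, and 0.62 ± 0.78 on the ERCC scale). KRT8, a keratin of simple epithelium that overlaps its partner KRT18, had 17304, 4358 and 5097 units against 11108, 11925 and 12431 (1.18 ± 0.34, adjusted p = 0.015). In both genes DMSO replicate 1 lay above the JQ1-VHL libraries and the other DMSO libraries lay below them. Neither was called without JQ1-VHL replicate 2 or 3, nor ERBB2, which overlaps MIEN1 and PGAP3, without DMSO replicate 1. KRT7, which overlaps KRT86, was lower, with 1081, 337 and 349.9 units under DMSO and 121, 165 and 72 under JQ1-VHL (-1.67 ± 0.42, adjusted p = 0.0071). The apocrine protein gene PIP had 34.2, 10 and 16.7 units against 4.12, 4.81 and 4.8, which did not pass (-1.30 ± 0.62, adjusted p = 0.11).

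MYC and BRD2 were called lower, and the shares of the MYC network that were called lay near those of all tested genes. MYC, a growth regulator and basic helix-loop-helix factor, had 477, 127 and 183 units under DMSO and 11, 18.1 and 12 under JQ1-VHL. Its change was -3.47 ± 0.50 relative to the typical gene (adjusted p = 0.00028) and -3.96 ± 1.00 on the ERCC scale (adjusted p = 0.011), the second of these lost without DMSO replicate 1 or JQ1-VHL replicate 3. Of the 10 genes of its network tested, 2 (20%) were called lower and 1 (10%) higher, against 14.8% and 16.8% of all tested genes. The list median was -1.13. The lower ones were MYC and MLX (-2.75), and the higher one was MLXIP (0.77). MLX and MLXIP lost their calls without DMSO replicate 1, JQ1-VHL replicate 2 or JQ1-VHL replicate 3. The other 7, MAX, MNT, MGA and the MXD genes among them, were not called. BRD2 had 4878, 1278 and 1352 units under DMSO and 1057, 529.5 and 380.4 under JQ1-VHL (-1.29 ± 0.38, adjusted p = 0.017), and its call was lost without DMSO replicate 2 or JQ1-VHL replicate 3. BRD3 had 616, 111 and 108 units against 124, 60.2 and 44.4 and did not pass (adjusted p = 0.15).

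Genes of pausing and elongation control were lower as a list. Of 19 tested, 8 (42.1%) were called lower and 1 (5.26%) higher, against 14.8% and 16.8% of all tested genes. The median was -1.08 relative to the typical gene and -1.55 on the ERCC scale. Between 2 and 8 were called lower without 1 library, with 3 when DMSO replicate 1 was left out, 4 for DMSO replicate 3 or JQ1-VHL replicate 2, and 2 for JQ1-VHL replicate 3. MEPCE, the enzyme that caps 7SK RNA, had 671, 90.2 and 122 units under DMSO and 9.62, 21.7 and 6.0 under JQ1-VHL (-3.55 ± 0.45, adjusted p = 8.1e-05), and it overlaps ZCWPW1. CDK9, the kinase of P-TEFb, had 610.2, 108 and 112 units against 68.7, 45.7 and 15.6 (-1.89 ± 0.55, adjusted p = 0.016), a call lost without DMSO replicate 1 or JQ1-VHL replicate 3. Its cyclin gene CCNT1 changed by -1.15 and overlapped between the groups, and HEXIM2, a P-TEFb inhibitor, changed by -2.59. CCNT1 kept its call in 2 and HEXIM2 in 1 of the 6 fits that left out a library. Of the subunits of the pausing factor NELF, NELFCD (-1.75) and NELFA (-1.30) were called lower and NELFB higher (0.81 ± 0.22, adjusted p = 0.011, not without JQ1-VHL replicate 3), while NELFE (-1.33) was not called.

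Feedback inhibitors of ERK signalling had the lowest list median of all 41 lists. The list holds the DUSP phosphatases and the SPRY and SPRED proteins, which are made when ERK is active and damp it. Of 10 tested, 6 (60%) were called lower and 0 higher, against 14.8% and 16.8% of all tested genes. The median was -2.26 relative to the typical gene and -2.74 on the ERCC scale, and 4 to 6 were called without 1 library. DUSP5 had 451, 135 and 142 units under DMSO and 8.25, 16.8 and 6.0 under JQ1-VHL (-3.81 ± 0.80, adjusted p = 0.0028). SPRY1 had 509.5, 96.5 and 106 units against 5.5, 18.1 and 8.4 (-3.56 ± 0.83, adjusted p = 0.0051). DUSP6 fell less in JQ1-VHL replicates 2 and 3 than in replicate 1, with 849.9, 260.1 and 284 units against 20.6, 116 and 86.4. DUSP4, DUSP7 and SPRED1 were the other members called, and SPRY2, SPRY4, SPRED2 and DUSP2 did not pass, at -0.23 to -2.35.

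Of 18 genes of insulin signalling tested, 3 (16.7%) were called lower and 1 (5.56%) higher, against 14.8% and 16.8% of all tested genes, so the list does not stand apart in its lower calls. Besides IGFBP3, the adaptor gene IRS1 had 344, 87.7 and 98.1 units under DMSO and 4.12, 4.81 and 7.2 under JQ1-VHL (-4.03 ± 0.88, adjusted p = 0.0034). PIK3R1, the regulatory subunit of PI3-kinase, had 2886, 1041 and 1167 units against 405, 193 and 197 (-2.13 ± 0.25, adjusted p = 3.5e-05). These 3 were the members called lower, each in all 6 fits that left out a library, and AKT1 was called higher (0.95 ± 0.21, adjusted p = 0.0036). With the replicate block 2 were higher. The other 14 did not pass, and the list median was -0.28.

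Several NF-kappaB genes were called lower. Of 12 tested, 6 (50%) were called lower and 1 (8.33%) higher, against 14.8% and 16.8% of all tested genes. The median was -1.52 (-1.99 on the ERCC scale), and 3 to 5 were called lower without 1 library, the 3 without DMSO replicate 1. RELA, the p65 subunit, had 657, 99.6 and 95.8 units under DMSO and 88.0, 25.3 and 2.4 under JQ1-VHL (-2.74 ± 0.86, adjusted p = 0.022), a call lost without DMSO replicate 1, DMSO replicate 2 or JQ1-VHL replicate 3. NFKBIA, the inhibitor that the pathway itself induces, had 2826, 651 and 688 units against 276, 298 and 209 (-1.58 ± 0.26, adjusted p = 0.0008). NFKB1 (-2.25), BCL3 (-2.41), NFKBIE (-1.61) and the receptor gene IL1R1 (-1.45) were lower as well. IL1R1 was called in 0 of the 6 fits that left out a library, and NFKBIE lost its call for DMSO replicate 1, DMSO replicate 3 and JQ1-VHL replicate 2. NFKB2, the p100 precursor, was called higher (0.95 ± 0.29, adjusted p = 0.021) and lost that call in 4 of the 6 fits that left out a library.

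Of 10 BCL2 family genes, 3 (30%) were called lower and 1 (10%) higher, against 14.8% and 16.8% of all tested genes. The median was -0.97, and 1 to 3 were called lower without 1 library, the 1 for DMSO replicate 2 and for JQ1-VHL replicate 3. The lower genes were of both kinds: BCL2L1, which protects from apoptosis, had 546, 159 and 138 units under DMSO and 83.8, 27.7 and 15.6 under JQ1-VHL (-2.27 ± 0.52, adjusted p = 0.0047), and the killers BMF (-2.98) and BCL2L11 (-1.59) were lower beside it, each losing its call in 3 of the 6 fits that left out a library. BIK, another killer, was called higher (1.08 ± 0.30, adjusted p = 0.013, not without DMSO replicate 1 or JQ1-VHL replicate 3), and MCL1 did not pass (0.15). Of 16 genes of G1 control, CCND1 and E2F2 were called lower and CDKN1A and RB1 higher, which is 12.5% in each direction and below the 14.8% and 16.8% of all tested genes. The cyclin gene CCND1 had 1339, 221 and 235 units under DMSO and 78.3, 63.8 and 25.2 under JQ1-VHL (-2.53 ± 0.38, adjusted p = 0.00039), and it overlaps LTO1. CDKN1A, the p21 inhibitor of cyclin-dependent kinases, had 159, 56.4 and 72.3 units against 124, 425 and 306 (2.00 ± 0.64, adjusted p = 0.024). JQ1-VHL replicate 1 lay within the DMSO range for CDKN1A, and neither CDKN1A nor RB1 was called when DMSO replicate 1, JQ1-VHL replicate 2 or JQ1-VHL replicate 3 was left out, nor CDKN1A for DMSO replicate 2.

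Immediate early genes were called in both directions. Of 18 tested, 6 (33.3%) were called lower and 2 (11.1%) higher, against 14.8% and 16.8% of all tested genes. Their median was 0.02. For BTG2, ZFP36L1 and EGR1 DMSO replicate 1 stood close to the other DMSO libraries in units. Relative to the typical gene, DMSO replicates 1 to 3 were divided by 3.73, 0.88 and 1.06. On that scale DMSO replicate 1 therefore lay below the other DMSO libraries for these 3 genes. BTG2, an antiproliferative gene, had 105, 84 and 95.1 units under DMSO and 4.12, 20.5 and 0 under JQ1-VHL (-3.81 ± 1.14, adjusted p = 0.018). The mRNA decay factor gene ZFP36L1 had 916, 769.6 and 838 units against 75.6, 156 and 88.8 (-2.55 ± 0.58, adjusted p = 0.0044). EGR1, a zinc finger factor of the first response to growth signals, had 72.5, 65.2 and 74.5 units against 247, 576 and 491 (2.99 ± 0.88, adjusted p = 0.017, and adjusted p = 0.1 on the ERCC scale). KLF2 was called higher as well (1.80 ± 0.25, adjusted p = 0.00023), and FOS (2.26) was not. Leaving out 1 library at a time gave 2 to 4 lower and 1 to 5 higher. BTG2 lost its call for DMSO replicate 2, DMSO replicate 3 and JQ1-VHL replicate 3, and EGR1 for DMSO replicate 1, JQ1-VHL replicate 2 and JQ1-VHL replicate 3.

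The ATF4 response supplies amino acids under stress. Of 17 of its genes tested, 5 (29.4%) were called lower and 0 higher, against 14.8% and 16.8% of all tested genes. The median was -1.70 (-2.17 on the ERCC scale). Without 1 library 3 to 6 were called, the 3 for DMSO replicate 2, DMSO replicate 3 and JQ1-VHL replicate 3. The pseudokinase gene TRIB3 had 1500.4, 746 and 1143 units under DMSO and 66, 195 and 139 under JQ1-VHL (-2.67 ± 0.55, adjusted p = 0.0026). PHGDH, the first enzyme of serine synthesis, had 1045, 825 and 1155 units against 113, 187 and 246 (-2.05 ± 0.66, adjusted p = 0.026), and lost its call in 4 of the 6 fits that left out a library. The share of units held by the list was 0.225%, 0.446% and 0.548% under DMSO and 0.164%, 0.203% and 0.226% under JQ1-VHL, so the groups met at DMSO replicate 1. ATF4 itself did not pass (-0.29).

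Zinc finger genes, 300 of them tested, were lower in number and by their median. Relative to the typical gene 66 were called lower and 2 higher, which is 22.0% and 0.667% against 14.8% and 16.8% of all tested genes, and the median was -0.81. With the replicate block 70 were lower and 4 higher. Between 31 and 54 were called lower without 1 library, with 40 for DMSO replicate 1, 31 for DMSO replicate 2 and for replicate 3, 41 for JQ1-VHL replicate 2 and 35 for JQ1-VHL replicate 3. Their share of units was 0.766%, 0.752% and 0.771% under DMSO and 0.404%, 0.346% and 0.345% under JQ1-VHL. Of 17 genes of TGF-beta and SMAD signalling 6 were called lower and 0 higher (median -0.58), with SMAD1, a transducer of BMP signals, at -2.38, and 2 to 4 were called without 1 library, SMAD1 in none of these fits. Of 60 mitochondrial ribosomal protein genes, 16 were called lower, which is 26.7%, and 12 higher, which is 20% (median -0.70). Without 1 library 8 to 18 were lower and 7 to 10 higher, with 10 lower for DMSO replicate 2, 8 lower for JQ1-VHL replicate 3, and 7 higher for DMSO replicate 1 and for JQ1-VHL replicate 3. MRPL36 had 163, 36.3 and 20.5 units under DMSO and was listed at 0 in all 3 JQ1-VHL libraries. On the ERCC scale its DMSO mean of 73.3 units was 19.4 times a floor of 3 reads per library. DMSO replicate 1 raised that mean, so the bound is smaller against the other DMSO libraries. The RAB GTPase gene RAB29 was listed at 0 in the same libraries, and its DMSO mean on the ERCC scale was 4.84 times that floor. It is in a list of 37 with 11 lower and 5 higher (7 lower for DMSO replicate 3 and 7 lower and 3 higher for JQ1-VHL replicate 3 left out).

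Increases of many-fold were few, and those named were led by genes with little new RNA in DMSO. The rule for naming asked for 100 units in the higher group only, so it let such genes in through their JQ1-VHL values. NIM1K, which encodes a kinase related to AMPK (GRCh38 chromosome 5, 43192071 to 43280850, plus strand), had 12.1, 1.25 and 13.7 units under DMSO and 206, 144 and 214 under JQ1-VHL. Its change was 5.03 ± 0.58 relative to the typical gene (adjusted p = 3.2e-05) and 4.62 ± 1.07 on the ERCC scale (adjusted p = 0.0065). NFE2L3, a bZIP factor related to NRF2, had 149, 30.1 and 48.7 units against 1192, 729 and 828 (4.34 ± 0.35, adjusted p = 9.2e-07), but it overlaps HNRNPA2B1. Among noncoding RNAs, IDI2-AS1 (4.65) overlaps IDI1 and IDI2, and GUCY2C-AS1 (4.65) overlaps GUCY2C. IDI1, an enzyme of isoprenoid synthesis, was itself called higher at 1.59. The rest of the 12 largest increases among genes with at least 100 units in the higher group were NUP210L, LEXM, ALOX12B, CCDC200, IQCN, BOLA1 and the histone genes H3C12 and H2BC5, at 3.35 to 4.29. All 12 were higher without overlap of the groups on both scales, and 10 of the 12 were called on the ERCC scale, with IQCN (adjusted p = 0.1) and BOLA1 (adjusted p = 0.059) the exceptions.

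Genes normally used in germ cells were among the increases. Of 29 genes listed 11 were in the table, and all 11 were tested. Relative to the typical gene 7 (63.6%) were called higher and 0 lower, against 16.8% and 14.8% of all tested genes. The list was chosen with earlier results of these data known, so these shares are a description and not a test. The median was 1.10 relative to the typical gene, 0.64 on the ERCC scale and 0.37 against the library sum. The filter on mean units took in the JQ1-VHL libraries. Genes with few DMSO units, such as MCMDC2 and TEX14 below, may therefore have been tested only because they rose. Between 3 and 6 were called without 1 library, with 3 for DMSO replicate 1, DMSO replicate 3 and JQ1-VHL replicate 3 and 4 for JQ1-VHL replicate 2. NUP210L, a testis paralogue of a nucleoporin, had 68.5, 3.76 and 16.7 units under DMSO and 322, 182 and 281 under JQ1-VHL (4.29 ± 0.61, adjusted p = 0.00026). TEX14, a protein of the bridges between germ cells, had 8.06, 2.51 and 7.61 units against 66, 75.8 and 50.4 (3.67 ± 0.59, adjusted p = 0.00059), and it overlaps IGBP1C. MCMDC2, a meiotic recombination gene, had 4.03, 2.51 and 1.52 units against 82.5, 51.7 and 99.6 (4.70 ± 0.91, adjusted p = 0.0019), and it overlaps SNHG6. The meiotic cohesin gene SMC1B, with far more units in DMSO, moved little: 2286, 476 and 626 units against 1169.7, 782 and 867, which is 0.55 ± 0.19 relative to the typical gene (adjusted p = 0.039), 0.07 ± 0.82 on the ERCC scale and -0.22 against the library sum. It lost its call in each of the 6 fits that left out a library.

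Replication histone genes rose together. They are transcribed in S phase and their usual mRNAs carry no poly(A) tail, so the polyadenylated reads counted here are a minor form. Of 10 tested, 9 (90%) were called higher and 0 lower, against 16.8% and 14.8% of all tested genes, and 9 were called without any 1 of the 6 libraries. On the ERCC scale 2 were called, H2BC5 and H3C12. The median was 2.74 relative to the typical gene, 2.27 on the ERCC scale and 1.98 against the library sum, where 8 were called. Their share of all units was 0.0159%, 0.0132% and 0.0170% under DMSO and 0.0742%, 0.0690% and 0.0656% under JQ1-VHL, 4.53 times the DMSO share. The tenth, H4C16, had a change of 1.08 and was not called.

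H3C12 (GRCh38 chromosome 6, 27890382 to 27893106, minus strand) had 203, 20.1 and 40.3 units under DMSO and 624, 669 and 639.7 under JQ1-VHL (3.99 ± 0.32, adjusted p = 9.2e-07), and it overlaps the histone gene H2AC17. H2BC5 had 379, 58.9 and 119 units against 1199, 928 and 973 (3.35 ± 0.32, adjusted p = 5e-06). H2AC6 had 302, 79.6 and 122 units against 838, 685 and 798 (2.89 ± 0.34, adjusted p = 3.2e-05). In all 3 the lowest JQ1-VHL library lay above DMSO replicate 1, the highest of the DMSO libraries. For 8 of the 10 genes the groups did not overlap on the ERCC scale, where 1.26% of all tested genes were higher in that way.

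Of the 9 histone genes with a RefSeq promoter in the reference used (GRCh38.p14), 4 held TATAAA within the 100 bases before the start and 7 held CCAAT, counting both strands. Over all 7973 tested genes with such a sequence the shares were 1.87% and 22.7%. The 100 bases of 3 of the genes are shown to let these letters be seen, 5′ to 3′ on the strand of the gene, with capitals marking the letters of TATAAA and those of CCAAT on either strand. They lie at chr6:26158021-26158120 (plus), chr6:26124072-26124171 (plus) and chr6:27146859-27146958 (minus).
H2BC5: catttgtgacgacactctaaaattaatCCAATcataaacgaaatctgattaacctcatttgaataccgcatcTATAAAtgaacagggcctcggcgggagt
H2AC6: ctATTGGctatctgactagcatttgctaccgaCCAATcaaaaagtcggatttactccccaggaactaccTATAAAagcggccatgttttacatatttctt
H2BC12: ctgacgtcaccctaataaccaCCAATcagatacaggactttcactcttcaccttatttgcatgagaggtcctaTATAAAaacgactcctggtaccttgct
H2BC12 had 292, 69.6 and 89.8 units under DMSO and 645, 548 and 431 under JQ1-VHL, a change of 2.59 ± 0.22 (adjusted p = 1.1e-06).

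The same letters were counted in the 300 bases from 250 before to 50 after the start of other genes. TATAAA was present in 16.0% of the 81 genes called higher by 4-fold or more, in 10.8% of the 74 left when the histone genes were taken out, and in 4.75% of all 7973. The median number of CpG was 16 in the 81 and 27 in all. For the 181 genes called lower by 8-fold or more the values were 2.76% and 27. The letters GGGCGG stood in 51.9%, 74.6% and 71.7% of these 3 sets, and CACGTG, the core of the site that MYC binds, in 7.41%, 9.94% and 10.4%. These shares are descriptions without a test, and the sets were chosen by their change.

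Many abundant housekeeping genes were called higher relative to the typical gene. The 10 genes with the most units were RPL4, ENO1, EEF1D, PABPC1, ACTB, ALDOA, RPL3, RPS12, HSP90AB1 and XRCC6, and their changes lay between 1.19 and 1.34 relative to the typical gene, all called, and between 0.72 and 0.86 on the ERCC scale, none called. Left out singly, JQ1-VHL replicate 3 ended the calls of EEF1D and ALDOA, JQ1-VHL replicate 2 those of EEF1D and RPS12, and DMSO replicate 1 that of RPS12. ACTB, cytoplasmic beta-actin, had 96139.7, 18847 and 21956 units under DMSO and 74776, 56382 and 56198 under JQ1-VHL (1.34 ± 0.18, adjusted p = 0.00018). The glycolytic enzyme gene GAPDH had 30548, 8974 and 10707 units against 24228, 26595 and 26158 (1.32 ± 0.27, adjusted p = 0.0026). For these genes JQ1-VHL values lay between DMSO replicate 1 and the other DMSO libraries.

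Of 68 ribosomal protein genes 39 were called higher and 3 lower (median 0.93 relative to the typical gene, 0.45 on the ERCC scale and 0.16 against the library sum, where 9 were higher and 6 lower). They held 7.72%, 8.40% and 8.48% of units under DMSO and 10.4%, 12.2% and 10.6% under JQ1-VHL. Of 19 glycolysis genes 11 were higher and 1 lower (median 0.94, 0.47 and 0.18 on the same scales), with shares of 3.03%, 3.44% and 3.34% against 3.92%, 5.18% and 5.22%, and 6 to 11 were called higher without 1 library, with 7 for DMSO replicate 1 and for JQ1-VHL replicate 2 and 6 for JQ1-VHL replicate 3. The lower one was PFKFB3, which makes the activator of phosphofructokinase (-1.52), called in 1 of the 6 fits that left out a library. Of 26 chaperone genes 15 were higher and 1 lower (median 0.90, 0.43 and 0.13), with shares of 3.07%, 3.07% and 3.06% against 4.08%, 3.96% and 4.07%. HSPD1, a mitochondrial chaperonin, led at 1.31 and overlaps HSPE1, and HSPH1 was the lower one at -1.01, called in 2 of those 6 fits (with the replicate block 3 chaperone genes were lower). Of 25 actin cytoskeleton genes 13 were higher and 2 lower (median 0.97, 0.50 and 0.20). The groups did not overlap in the share of units of any of these 4 lists. Among all tested genes 16.8% were called higher and 14.8% lower relative to the typical gene. In the highest of 5 bins of genes by DMSO mean, 53.2% were higher and 6.58% lower. The higher calls of these 4 lists, 52.0% to 57.9% of members, lay near the share of that bin. What part level has in them was not tested.

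Other lists of housekeeping functions changed sign with the scale. Medians relative to the typical gene, on the ERCC scale and against the library sum were 0.45, -0.03 and -0.32 for 47 translation factors (19 higher and 4 lower relative to the typical gene), 0.43, -0.04 and -0.34 for 28 proteasome genes (13 and 6), 0.23, -0.24 and -0.53 for 53 genes of the core spliceosome (20 and 7), and 0.27, -0.21 and -0.50 for 28 SR protein and nuclear speckle genes (9 and 4). The kinase gene CLK4 was the lowest of the last list at -2.53. For 23 mRNA export genes they were 0.17, -0.30 and -0.59 (9 and 2). For 28 cholesterol and fatty acid genes they were 0.36, -0.12 and -0.41 (9 and 0), for 36 genes of the secretory pathway 0.23, -0.25 and -0.54 (13 and 0), and for 62 oxidative phosphorylation genes 0.11, -0.36 and -0.65 (21 and 10). Relative to the typical gene 32.1% to 46.4% of the members of these lists were called higher, against 16.8% of all tested genes. Lower calls were 0% to 21.4%, against 14.8%, with the core spliceosome (13.2%), SR proteins (14.3%) and oxidative phosphorylation (16.1%) near that share. A direction cannot be given for these lists apart from a scale. Their counts also depended on single libraries. With JQ1-VHL replicate 3 left out, higher calls were 12 for translation factors, 5 for SR proteins and speckles, 4 for export, 5 for cholesterol and fatty acids, 6 for the secretory pathway and 12 for oxidative phosphorylation, and 4 spliceosome genes were lower. With DMSO replicate 1 left out they were 5 for SR proteins and speckles, 5 for export, 6 for the secretory pathway and 9 for oxidative phosphorylation. With JQ1-VHL replicate 2 left out they were 4 for export, 7 for the secretory pathway and 10 for oxidative phosphorylation. DMSO replicate 3 left 5 for SR proteins, 5 for export and 8 for the secretory pathway, and DMSO replicate 2 left 7 for the secretory pathway. Lower calls, fewer in number, ranged from 0 to 4 for translation factors, 1 to 5 for the proteasome, 1 to 4 for SR proteins, 1 to 2 for export and 3 to 11 for oxidative phosphorylation. With the replicate block 1 cholesterol and fatty acid gene was lower.

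**Figure D4:**
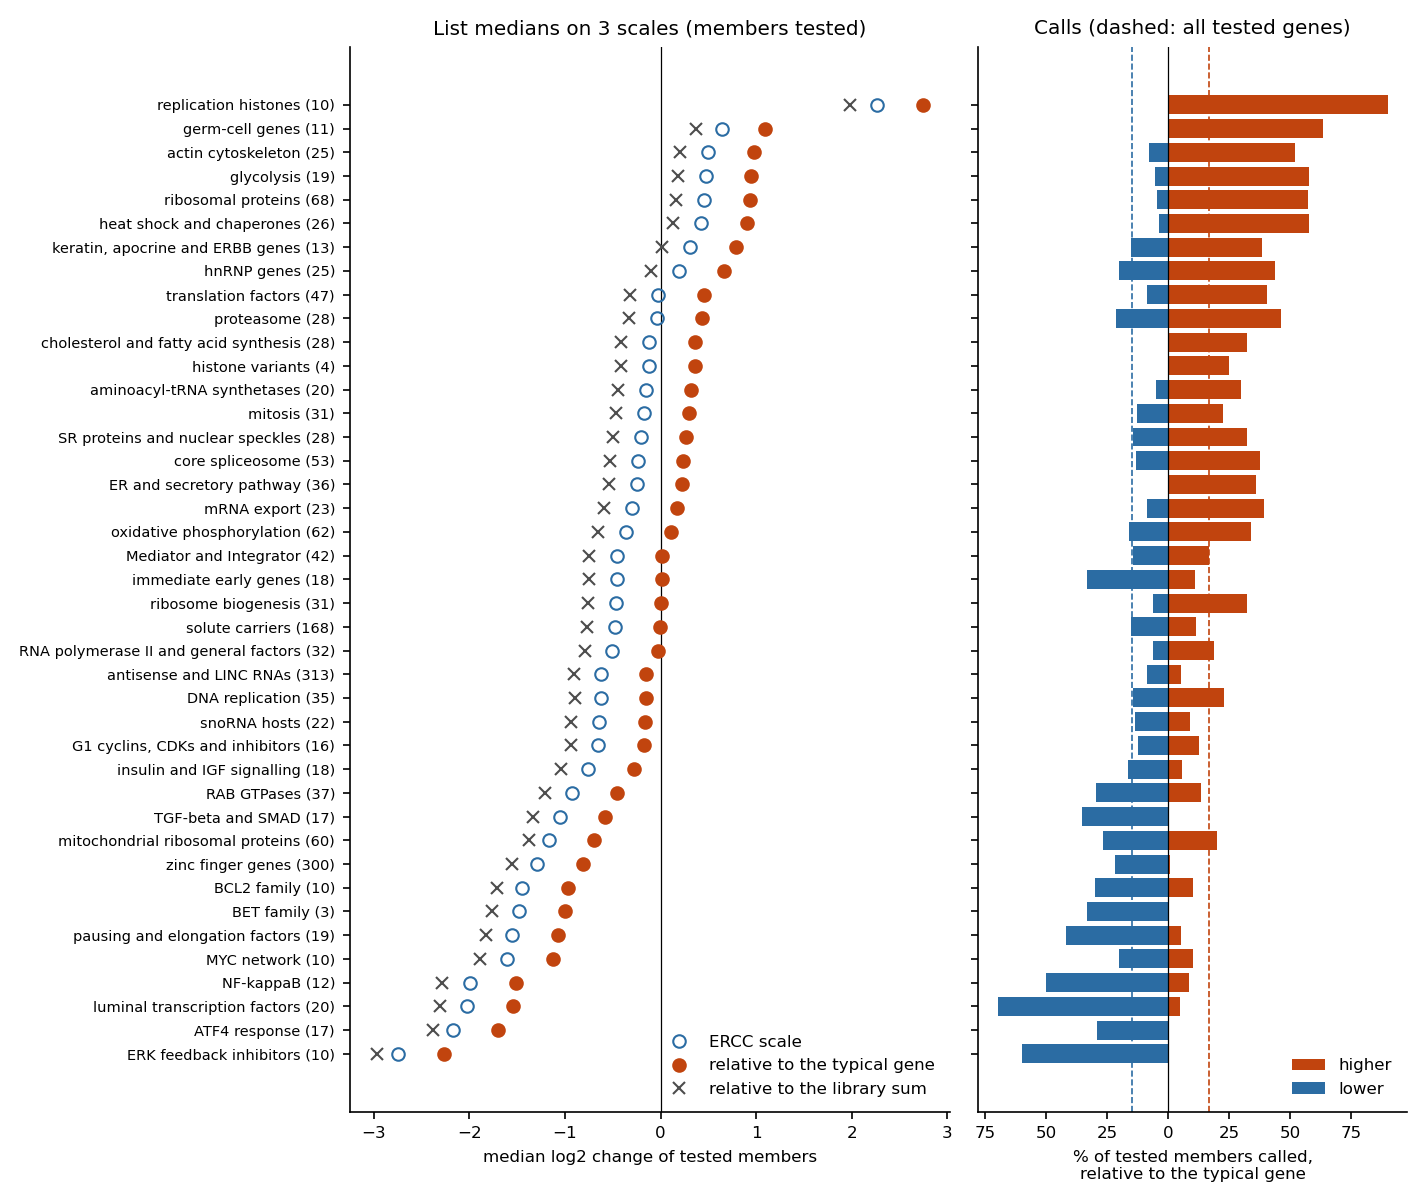
Left, the median log2 change of the tested members of each of the 41 lists (number tested in brackets) on the ERCC scale (open blue), relative to the typical gene (orange) and against the library sum (cross). Right, the percentage of members called higher (orange) and lower (blue) relative to the typical gene, with dashed lines at 16.8% and 14.8% for all tested genes. From ERK feedback inhibitors at -2.26 to the RAB GTPases at -0.45 the medians are below 0 on all 3 scales, and from replication histones at 2.74 to chaperones at 0.90 they are above 0 on all 3.

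The direction of a gene went with its level. When the tested genes were ranked by their DMSO mean and divided into 5 bins of nearly equal size, the median change relative to the typical gene was -0.30, -0.65, -0.41, 0.06 and 0.73 from the lowest to the highest bin. In the highest bin 53.2% were called higher and 6.58% lower, and in the second lowest 3.24% and 18.2%. Because the DMSO mean is itself part of the change, the ranking was repeated with the mean of the nuclear DMSO libraries, which gave -0.20, -0.47, -0.27, 0.03 and 0.59. By the number of intervals of a gene the medians were -0.54, -0.40, -0.21, 0.12 and 0.43, and by the length of the gene -0.55, -0.29, -0.01, 0.10 and 0.29. Level, intervals and length go together, since a gene's value is a sum over its intervals, and their parts were not separated. On the ERCC scale the medians by DMSO level were -0.77, -1.13, -0.89, -0.41 and 0.26.

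**Figure D5:**
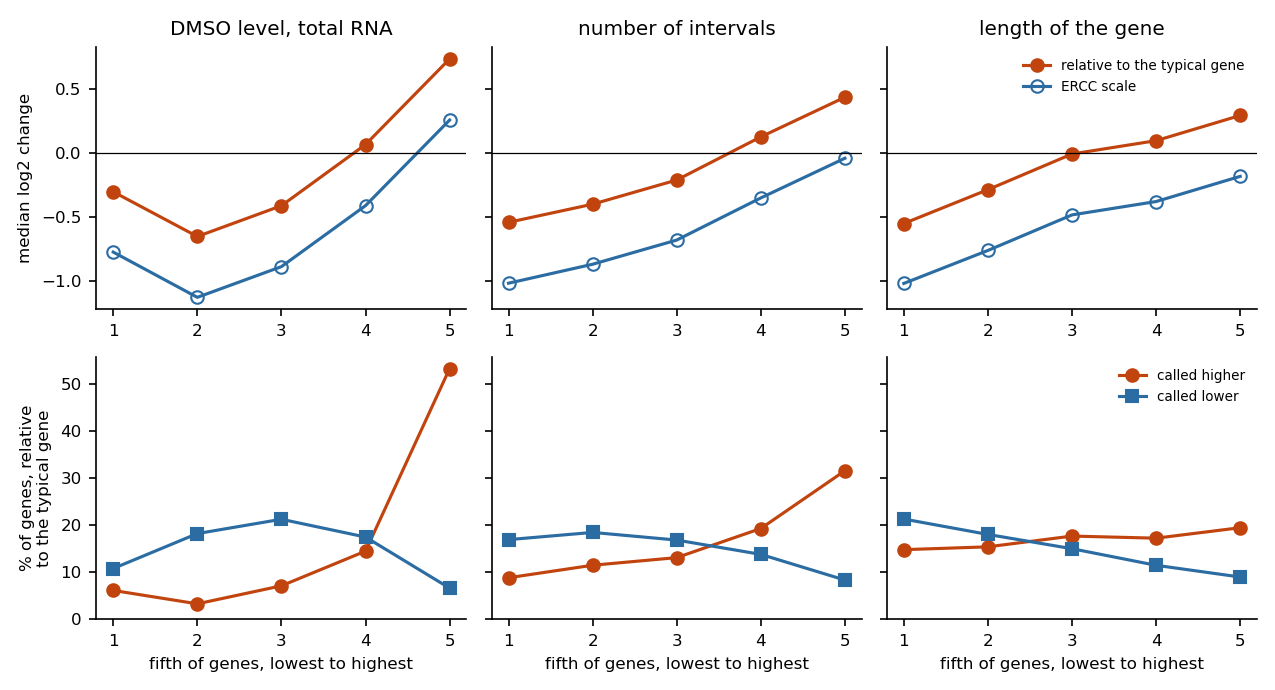
Top, the median log2 change of genes in each of 5 bins by DMSO level, number of intervals and gene length, relative to the typical gene (filled) and on the ERCC scale (open). Bottom, the percentage called higher (circles) and lower (squares) relative to the typical gene. Calls upward reach 53.2% in the bin with the highest level and are 3.24% in the second lowest.

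Many of the genes called in total RNA were called the same way in the fractions. Relative to the typical gene nuclear RNA had 2130 genes (20.9%) higher and 1055 (10.4%) lower. Cytoplasmic RNA had 2503 (24.6%) higher and 1375 (13.5%) lower. Of the genes higher in total RNA 1381 were higher in nuclear RNA, which is 80.7% of the total list and 64.8% of the nuclear list. Of the genes lower in total RNA 679 were lower in nuclear RNA, 45.0% of the total list and 64.4% of the nuclear list, and 0 genes were called in opposite directions. With cytoplasmic RNA 3 genes higher and 18 genes lower in total RNA were called in the opposite direction. Across genes, which are not independent replicates, Pearson's r of the changes was 0.850 with nuclear and 0.714 with cytoplasmic RNA. The fractions share batches and treatments but no library. Because a single fit over the 18 libraries gave them the same spread per gene, their calls are not independent.

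The difference between the effects was then tested gene by gene, relative to the typical gene. For total minus nuclear RNA limma called 0 of 10191 genes (0.0%), with 453 at an unadjusted p under 0.05. For total minus cytoplasmic RNA it called 6 (0.0589%), with 1069 at an unadjusted p under 0.05 and 10 with the replicate block. INPP5J, HID1, DNPEP and FGFR4 were lower in total than in cytoplasmic RNA by the test, and CPEB4 and ACOT13 higher. With any 1 total library left out 0 genes were called.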

How the data were processed

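SLAM-seq libraries of polyadenylated RNA (150 bp paired-end reads) from MDA-MB-453 cells were described through 1 deposited table. Per the labels, ERCC RNA was added by RNA mass and Drosophila cells by number. Tools listed in the submitters' processing notes, with no roles, are HISAT2, HTSeq, DESeq2, Trimmomatic 0.39 and bcl2fastq, and builds are hg19 and dm3. The deposited signal values are T-to-C counts per interval, scaled with ERCC by the authors according to the name of the deposited table; the strand counted and the interval definition are not given in the sources used here. Each value was a whole multiple of its library's smallest value within 0.01 reads (100.0%), which gave back the reads, 0.627 to 2.01 units each in the 6 total libraries.

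The 98665 intervals were summed over 12755 Ensembl IDs, of which 12546 matched GENCODE 29 (GRCh38), the source of names, coordinates and overlaps. RefSeq (GRCh38.p14) gave 7973 promoters. limma 3.58.1 (R 4.3.3; trend and robust options) fitted log2(units + 1) with 6 group means over 18 libraries. The filter, a mean of at least 10 units, kept 99.8% of all units. The script was tested on simulated data. edgeR 4.0.16 and DESeq2 1.42.0 on recovered reads, other pseudocounts, filters, scalings and left-out libraries were alternatives. The rescaling factor was changed after counts under 2 definitions were seen, and 3 further definitions were added later. Intervals of shares would cover counting error only and are not given.

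Named genes were the 12 largest changes each way among called genes without overlap of the groups relative to the typical gene and with at least 100 units in the higher group, the called members with the largest decrease and increase in each list, the 10 genes with most units and a fixed set of check genes and markers. Further called list members were named after their values were seen. Members and lists were chosen with earlier results of these data known.

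Labels give same-numbered libraries the same batch. The correlations of deviations within a batch were 0.222, 0.075 and 0.156 on the ERCC scale, and the replicate block is printed where it moved a count of calls by over 1.5 times. Some members of the lists are not reported here by name.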

Additional observations from a re-analysis of the deposited data

Results flagged for a closer look

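For 6 genes the effect of JQ1-VHL in total RNA differed from that in cytoplasmic RNA by limma's interaction test relative to the typical gene (6 of 10191, where 1069 had an unadjusted p under 0.05). The difference, total minus cytoplasmic, was -2.741 log2 units for INPP5J, a phosphoinositide phosphatase gene (-1.78 in total and 0.96 in cytoplasmic RNA, adjusted p = 0.049). It was -2.470 for HID1 (-1.71 and 0.77, adjusted p = 0.033). It was -2.358 for the aminopeptidase gene DNPEP (-1.81 and 0.55, adjusted p = 0.043). It was -1.774 for FGFR4, a fibroblast growth factor receptor gene (-1.58 and 0.20, adjusted p = 0.038). FGFR4 had 8537, 2141 and 2278 units in total RNA under DMSO and 1032, 819.5 and 683 under JQ1-VHL.

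The difference had the other sign for CPEB4, which encodes an RNA-binding protein of translation control, and for the thioesterase gene ACOT13. It was 2.219 for CPEB4 (-1.29 in total and -3.51 in cytoplasmic RNA, adjusted p = 0.049) and 3.662 for ACOT13 (2.21 and -1.46, adjusted p = 0.033). In ACOT13 the total units were 101, 12.5 and 24.3 under DMSO and 115, 89.1 and 122 under JQ1-VHL, so DMSO replicate 1 lay within the JQ1-VHL range. With any 1 of the 6 total libraries left out limma called 0 genes, and on the ERCC scale it called 0, with 161 at an unadjusted p under 0.05.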

How the results depend on the processing

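The 309 calls on the ERCC scale became 61 with a pseudocount of 0.1, 511 with 10, 630 without a filter on low values, 580 in the 6 total libraries alone, 643 with the highest interval of each gene, 914 with DESeq2 and 583 with the replicate block, which pairs same-numbered libraries; edgeR called 233. Leaving out 1 library gave 18 to 236. The 3222 calls relative to the typical gene became 5226 in the 6 libraries alone and 1658 to 2996 without 1 library; the block gave 3686. Total minus nuclear RNA gave 0 to 1 calls without 1 library. The 6 calls for total minus cytoplasmic RNA became 19 with a pseudocount of 0.1, 12 with 10, 1 with the highest interval, 1 against the library sum, 10 with the block and 0 to 47 without 1 library. The ratio of summed units was 0.804 to 1.87 without 1 library. Changes relative to the typical gene reversed for KRT19 (-0.62) and SMC1B (-0.22) against the library sum, and for CDH1 (0.46) and AFF1 (0.17) with the highest interval. The cause of these shifts was not tested. Relative to the typical gene, all 24 largest changes by the rule for naming stayed called in all but 2 of the 20 alternatives. P2RY6 and INAFM2 were lost with a pseudocount of 0.1, and P2RY6 without JQ1-VHL replicate 3. These genes were chosen as called and without overlap on that scale, so this is no independent check. On the ERCC scale 22 of them were called. Of these, 5 stayed called without JQ1-VHL replicate 3, 14 to 16 without another total library and 11 with a pseudocount of 0.1. Of all 168 named genes called relative to the typical gene, 108 stayed called without JQ1-VHL replicate 3. Genes with few reads limit what can be detected: 523 to 1373 genes had no read in a total library.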
